A study of Mus musculus with 8 samples.

Results

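Genes of the primary cilium were followed on arrays that compared the epithelium and the mesenchyme of E12.5 mouse lungs, 40 genes of 18996 measured. They were chosen by name from the annotation of the array: all symbols made of Ift or Bbs and a number, *Tctn1* to *Tctn3*, and *Wdr19*, *Wdr35*, *Ttc21b*, *Kif3a*, *Kif3b*, *Kif7*, *Mks1*, *B9d1*, *B9d2*, *Cc2d2a*, *Rpgrip1l*, *Tmem67*, *Tulp3*, *Dync2h1* and *Ofd1*. *Arl13b*, the remaining symbol, is not analysed here. The lungs were wild type, and the labels give no treatment. The tissues came from distal tips, separated with dispase and needles, although the labels call the material a homogenate of the embryonic lung. The strain is C57bl/6J in the sample labels, C57BL/6 in the methods of the study and BALb/c in the design note. Each of 4 arrays carried 1 epithelium sample in the Cy3 channel and 1 mesenchyme sample in the Cy5 channel, so that each tissue had 4 samples and the effects of dye and tissue cannot be told apart. Values are log2 signals on the deposited scale, and a difference is epithelium minus mesenchyme. Where a gene had several probes, the probe with the highest mean over the 8 samples stands for it.

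The primary cilium is a single, immotile projection of the cell surface, built on a basal body derived from a centriole. Its parts are carried along the axoneme by intraflagellar transport (IFT): trains of the IFT-B complex move outward with kinesin motors and return with the IFT-A complex and a dynein motor. The BBSome, an octamer named after Bardet-Biedl syndrome, links membrane proteins to these trains, and the transition zone at the ciliary base gates what enters. In vertebrates the response to Hedgehog ligands passes through this organelle. In the embryonic lung the epithelium secretes the ligand SHH and the mesenchyme receives it.

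Most transcripts of this machinery differed little between the tissues. A gene passed the test at an adjusted p under 0.05 (limma, Benjamini-Hochberg over all 18996 genes). Of the 40 genes, 16 passed, 12 with more signal in the mesenchyme and 4 with more in the epithelium. Of all genes tested, 45.9% passed, 24.8% toward the mesenchyme and 21.2% toward the epithelium. In this fit, which has no array block, the share of the cilium genes, 40%, was not above the background. Among genes above the dimmest 30% of all genes, 16 of 39 cilium genes (41.0%) and 58.1% of the other genes passed. The median difference of the 40 genes was -0.09, against -0.03 over all genes, and it lay between -0.09 and -0.06 on each of the 4 arrays. Only 1 cilium gene, *Tctn2*, differed by more than 1 log2 unit, against 13.96% of all genes, and 6 (15.0%) differed by more than 0.5, against 27.1%.

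The 16 genes that passed differed by 0.21 to 1.49 log2 units and had the same sign on all 4 arrays, as did 14 of the 24 others. In 15 of the 16 the samples of the tissues did not overlap, the exception being *Ift46*, whereas they overlapped in all 24 others. The test and the overlap rest on the same values, so the overlap is no separate support. Of the 40 genes, 37.5% had no overlap between the tissues, against 44.3% of all genes. With the array as a block, 25 of the 40 genes passed, 18 toward the mesenchyme and 7 toward the epithelium, against 57.4% of all genes (30.9% and 26.5%). In the blocked fit, unlike the main one, the share of the cilium genes that passed thus lay above that of all genes. This share was above that of all genes toward the mesenchyme and below it toward the epithelium. With the dimmest genes set aside as above, 25 of 39 cilium genes and 9698 of 13258 other genes passed in the blocked fit. There the share of the cilium genes lay below that of the other genes, as in the main fit. The block added 9 genes and removed 0. In bulk samples such as these, fewer cells of a type and less RNA per cell cannot be told apart.

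**Figure D1:**
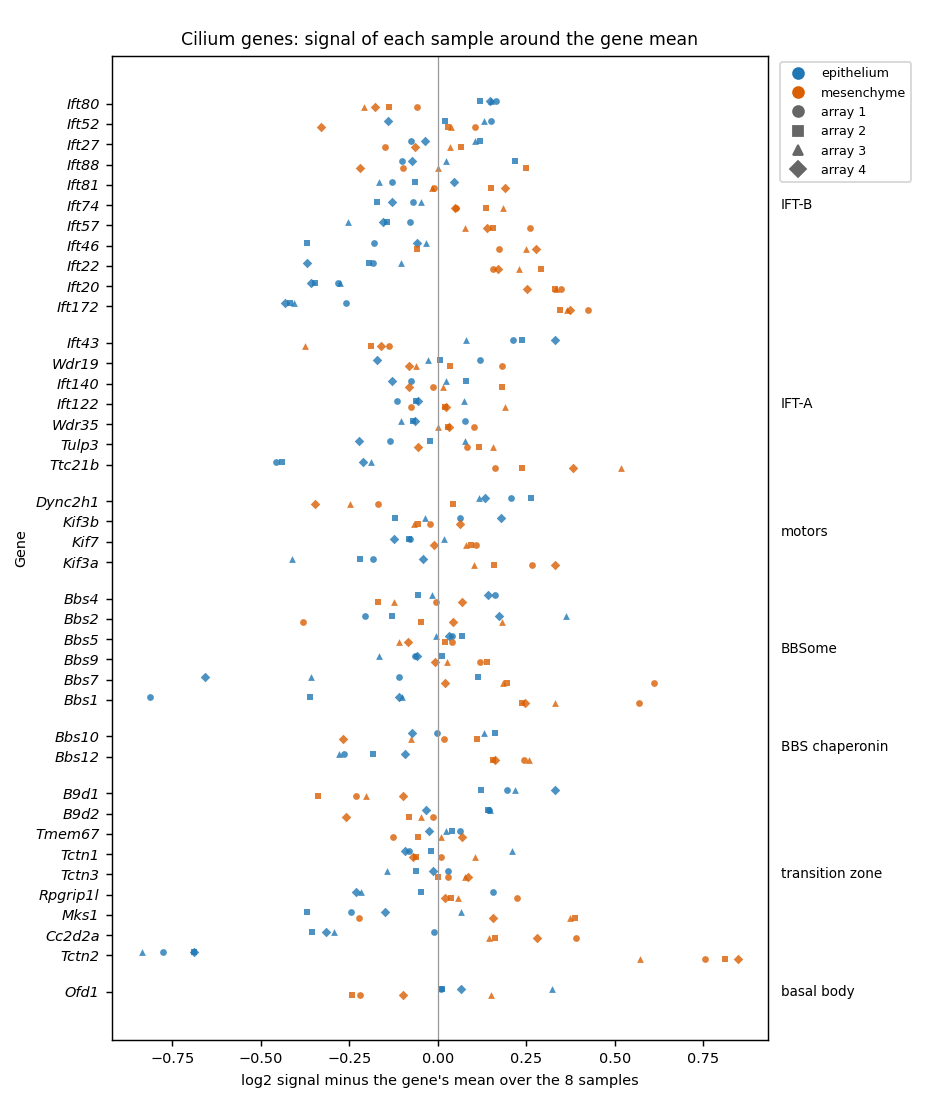
Signal of the 40 cilium genes in each of the 8 samples, as log2 signal minus the mean of the gene over the samples (x axis), with genes on the y axis grouped by role; colour gives the tissue and shape the array. *Tctn2*, *Ift172* and *Ift20* have epithelium and mesenchyme samples far apart, whereas the samples of genes such as *Wdr19* and *Tctn1* are mixed.

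The libraries showed the tissues named by their labels. Correlations across all genes were 0.996 to 0.997 between epithelium samples, 0.995 to 0.996 between mesenchyme samples and 0.964 to 0.968 between tissues. All 8 epithelial markers were higher in the epithelium (mean log2 signal per sample 12.37 to 12.46 against 7.24 to 7.84), and all 9 lung mesenchyme markers were higher in the mesenchyme (9.61 to 9.75 against 7.61 to 7.69). The mesenchyme samples also carried higher signal for all 7 endothelial markers (8.83 to 8.90 against 5.23 to 5.61), all 5 erythroid markers (11.82 to 11.92 against 7.65 to 7.85), all 4 leukocyte markers (7.77 to 7.92 against 6.08 to 6.15) and 4 of 6 mesothelial markers (7.02 to 7.07 against 5.13 to 5.26 over the 6). The other 2 mesothelial markers, *Msln* and *Krt19*, were higher in the epithelium (differences 2.44 and 1.71). The epithelium samples carried higher signal for 5 of 6 neural crest and neuron markers (5.34 to 5.44 against 3.98 to 4.05). No marker is at 0 on this scale, where the lowest value of any probe is 1.34. The part of these cell types in the differences of the cilium genes was not tested.

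Several of the genes carry an X-box, the sequence recognised by RFX transcription factors, near an annotated start. The motif was searched on both strands as a pair of hexamers, GTTNCC and GGNAAC, separated by 1, 2 or 3 bases, and as the single hexamer GTTGCC, which can be part of the pair. Windows from 250 bases before to 50 bases after the start were at hand in RefSeq (GRCm38.p6) for 36 of the 40 genes, 37 windows in all. *Ift80*, *Ift81*, *Ift122* and *Tmem67* had no entry. The pair was present in 5 of the 37 windows (13.5%) and in 0.776% of all 32851 windows. The single hexamer was present in 17 windows (45.9%) and in 12.5% of all. A match is a run of letters, not a measured binding site. The 5 stretches that hold the pair are shown 5′ to 3′ along the gene, with the pair and its spacer in capitals. They are *Bbs7* (chr3:36613493-36613639, minus strand), *Ift57* (chr16:49699144-49699293, plus strand), *Mks1* (chr11:87853183-87853212, plus strand), *Tctn1* (chr5:122264411-122264432, minus strand) and *Tctn3* (chr19:40612325-40612474, minus strand).
Bbs7: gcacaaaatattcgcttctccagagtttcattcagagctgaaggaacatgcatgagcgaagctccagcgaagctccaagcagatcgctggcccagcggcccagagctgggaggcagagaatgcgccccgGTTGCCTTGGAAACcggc
Ift57: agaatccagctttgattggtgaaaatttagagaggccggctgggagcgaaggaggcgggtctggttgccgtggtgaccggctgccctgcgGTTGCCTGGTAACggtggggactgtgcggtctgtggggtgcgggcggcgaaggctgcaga
Mks1: gcgtctccGTTGCCAGGGGAACgaggcacc
Tctn1: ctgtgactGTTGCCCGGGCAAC
Tctn3: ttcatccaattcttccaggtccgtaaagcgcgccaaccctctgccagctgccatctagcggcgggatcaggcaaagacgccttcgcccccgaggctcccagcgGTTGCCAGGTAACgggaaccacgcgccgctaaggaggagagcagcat

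Positions are counted from the start that the promoter table uses. In *Ift57* it is the edge of the gene as listed, whereas in *Bbs7*, *Tctn3*, *Mks1* and *Tctn1* it lies 103, 93, 33 and 29 bases inside the listed span. The stretches of *Bbs7*, *Ift57* and *Tctn3* therefore end at the edge of the listed gene, and the pairs of *Mks1* and *Tctn1* lie within it. From the start of the table, the pair began at position -140 in *Tctn3*, -121 in *Bbs7*, -60 in *Ift57*, -24 in *Mks1* and 37 in *Tctn1*. Of these 5 genes, 1 passed the test between the tissues (*Ift57*, toward the mesenchyme), and the others are described with their complexes.

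**Figure D2:**
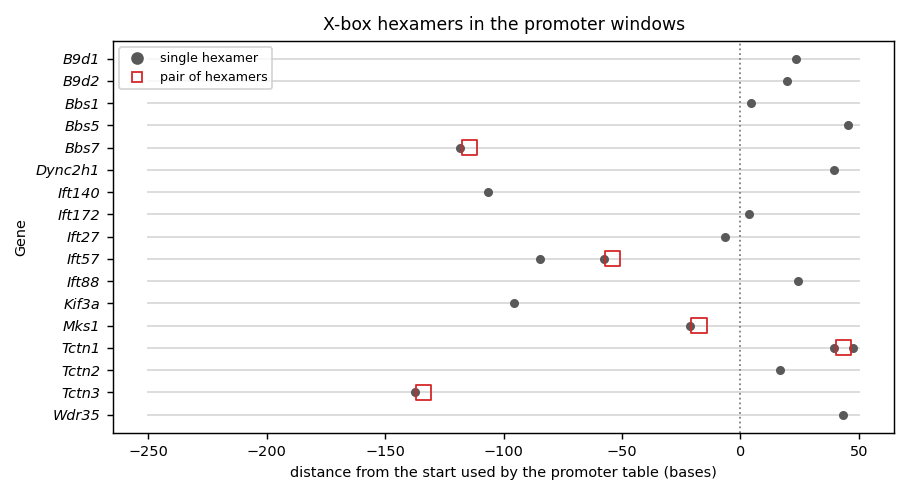
Position of X-box hexamers around the start, as the promoter table gives it, of the cilium genes whose promoter window holds one (x axis, bases from the start; y axis, genes; dots, single hexamers; squares, pairs). Pairs of hexamers are present in *Bbs7*, *Ift57*, *Mks1*, *Tctn1* and *Tctn3*, and single hexamers in 17 genes.

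The transition zone held the largest difference of all 40 genes, that of *Tctn2*. Of its 9 genes, 2 passed toward the mesenchyme, 1 toward the epithelium and 6 did not pass. Thus 33.3% passed, against 45.9% of all genes. *Tctn2* (GRCm38.p6 chr5:124598749-124627738) encodes a tectonic protein of the complex that holds back membrane proteins at the ciliary base. Its signal was 7.12, 7.21, 7.06 and 7.21 in epithelium samples 1 to 4 and 8.65, 8.71, 8.47 and 8.75 in mesenchyme samples 1 to 4. Every mesenchyme sample lay above every epithelium sample, and the mean was 2.82-fold higher in the mesenchyme (difference -1.49, SE 0.07, n = 4 per tissue, limma adjusted p = 3.92e-07). *Tctn1* and *Tctn3*, the other tectonic genes, did not pass. *Tctn1* gave 6.56, 6.62, 6.85 and 6.55 in the epithelium against 6.65, 6.58, 6.75 and 6.57 in the mesenchyme, with the tissues mixed (difference 0.01, SE 0.08). *Tctn3* differed by -0.10 (SE 0.06, limma adjusted p = 0.206).

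*B9d1*, which encodes a B9-domain protein of the same complex (chr11:61505144-61512931), was higher in the epithelium. Its signal was 11.66, 11.58, 11.68 and 11.80 in the epithelium against 11.23, 11.13, 11.26 and 11.37 in the mesenchyme. The lowest epithelium sample exceeded the highest mesenchyme sample, and the fold was 1.35 (difference 0.43, SE 0.07, limma adjusted p = 0.000962). Its partner *B9d2* gave 11.11, 11.11, 11.12 and 10.93 in the epithelium against 10.95, 10.89, 10.92 and 10.71 in the mesenchyme. The difference of 0.20 (SE 0.07) just missed the threshold (limma adjusted p = 0.0554), and it passed with the array as a block (adjusted p = 0.0031) and without epithelium sample 4, the lowest of its tissue (difference 0.25, adjusted p = 0.0307). *Mks1*, which encodes the B9-domain protein that is altered in Meckel syndrome, was the only cilium gene among the dimmest 30% of genes. It gave 2.03, 1.91, 2.34 and 2.13 in the epithelium against 2.05, 2.66, 2.65 and 2.43 in the mesenchyme. Mesenchyme sample 1 lay within the epithelium range. The difference was -0.35 (SE 0.15, limma adjusted p = 0.0938), and -0.48 without that sample (adjusted p = 0.0109). Without array 2, where the difference was -0.76, it was -0.21 (adjusted p = 0.372), and after adding an offset of 16 to the linear signals it was -0.083.

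*Cc2d2a*, which encodes a coiled-coil and C2-domain protein altered in Joubert syndrome, was the other transition zone gene higher in the mesenchyme. It gave 5.86, 5.52, 5.58 and 5.56 in the epithelium against 6.26, 6.03, 6.02 and 6.15 in the mesenchyme. The tissues were apart in all samples, by a fold of 1.40 (difference -0.49, SE 0.09, limma adjusted p = 0.00242). *Rpgrip1l*, whose product is a scaffold of the transition zone, gave 8.10, 7.89, 7.72 and 7.71 in the epithelium against 8.16, 7.98, 7.996 and 7.96 in the mesenchyme. Epithelium sample 1 lay above 3 of the 4 mesenchyme samples, and the difference was -0.17 (SE 0.10, limma adjusted p = 0.198) with it and -0.25 (adjusted p = 0.0403) without it. With the array as a block the adjusted p was 0.0452. Its other probes above the dim limit were higher in the mesenchyme, by -0.74 (adjusted p over all probes 0.000165) and -0.36 (0.0326). *Tmem67*, which encodes the transmembrane protein meckelin, gave 5.93, 5.90, 5.88 and 5.84 in the epithelium against 5.74, 5.81, 5.87 and 5.93 in the mesenchyme, a difference of 0.05 (SE 0.06) with the tissues mixed.

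IFT-B, the largest of the groups, held the greatest number of genes that passed. Of its 11 genes, 6 passed toward the mesenchyme, 1 toward the epithelium and 4 did not pass, with a median difference of -0.21. The share that passed was 63.6%, against 45.9% of all genes, and the 6 include *Ift46*, whose probes disagree. No IFT-B gene was among the dimmest genes set aside above, and 58.1% of the other genes that remained passed. Against that background the share of IFT-B stood out less. Among the peripheral subunits, *Ift172* (chr5:31253279-31291391), whose product acts in algae at the ciliary tip, where trains turn, gave 11.36, 11.20, 11.21 and 11.19 in the epithelium against 12.04, 11.96, 11.98 and 11.99 in the mesenchyme. Every mesenchyme sample was higher, by a fold of 1.69 in the mean (difference -0.76, SE 0.06, limma adjusted p = 6.08e-06). *Ift20* (chr11:78536361-78541732), the subunit that is also found at the Golgi and takes part in sending membrane proteins to the cilium, gave 11.68, 11.61, 11.68 and 11.60 against 12.30, 12.29, 12.29 and 12.21. The tissues were again apart in all samples (1.55-fold, difference -0.63, SE 0.05, limma adjusted p = 9.15e-06).

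*Ift57*, a further peripheral subunit and a carrier of the X-box pair shown above, gave 10.18, 10.11, 10.0006 and 10.10 in the epithelium against 10.51, 10.41, 10.33 and 10.39 in the mesenchyme. The mesenchyme was higher in all samples (1.25-fold, difference -0.32, SE 0.06, limma adjusted p = 0.00284). The call was lost when all probes of the gene were averaged (difference -0.18, adjusted p = 0.0593). *Ift80*, the remaining peripheral subunit in the list and a gene altered in a skeletal ciliopathy with a narrow thorax, ran the other way. It gave 7.52, 7.48, 7.51 and 7.51 in the epithelium against 7.30, 7.22, 7.15 and 7.18 in the mesenchyme. All epithelium samples were higher, by a fold of 1.22 (difference 0.29, SE 0.05, limma adjusted p = 0.00166).

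Among the core subunits of IFT-B, the differences reached 0.43 in size. *Ift22*, which encodes a small GTPase-like subunit, was 1.34-fold higher in the mesenchyme (difference -0.43, SE 0.07, limma adjusted p = 0.000984). *Ift74*, whose product binds tubulin together with that of *Ift81*, was 1.16-fold higher there (difference -0.21, SE 0.06, adjusted p = 0.0156), and without array 2 it did not pass (adjusted p = 0.0982). *Ift81* itself gave 9.37, 9.43, 9.33 and 9.54 in the epithelium against 9.49, 9.65, 9.48 and 9.69 in the mesenchyme. Its tissues overlapped, although the mesenchyme was higher on each array (difference -0.16, SE 0.07, limma adjusted p = 0.12, and 0.00858 with the array as a block). *Ift88*, the subunit altered in the polycystic kidney mouse, *Ift52* and the GTPase gene *Ift27* differed by 0.04, 0.08 and 0.06, with SEs of 0.11, 0.11 and 0.07.

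*Ift46*, a core subunit that takes part in dynein arm import in algae, passed toward opposite tissues depending on the choice of probe (chr9:44770456-44792714). Its brightest probe gave 12.03, 11.84, 12.18 and 12.15 in the epithelium against 12.38, 12.15, 12.46 and 12.49 in the mesenchyme. Mesenchyme sample 2 lay within the epithelium range, and the fold toward the mesenchyme was 1.25 (difference -0.32, SE 0.10, limma adjusted p = 0.0298, and 0.000618 with the array as a block). The other probe of the gene was higher in the epithelium, with means of 4.75 and 3.65, and the average of both probes gave 0.39 (adjusted p = 0.00963). The call toward the mesenchyme was lost without array 1, 3 or 4 (adjusted p = 0.12, 0.069 and 0.087), without epithelium sample 1 or 2 (0.0682 and 0.0717) and without mesenchyme sample 1, 3 or 4 (0.0604, 0.0719 and 0.0759).

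**Figure D3:**
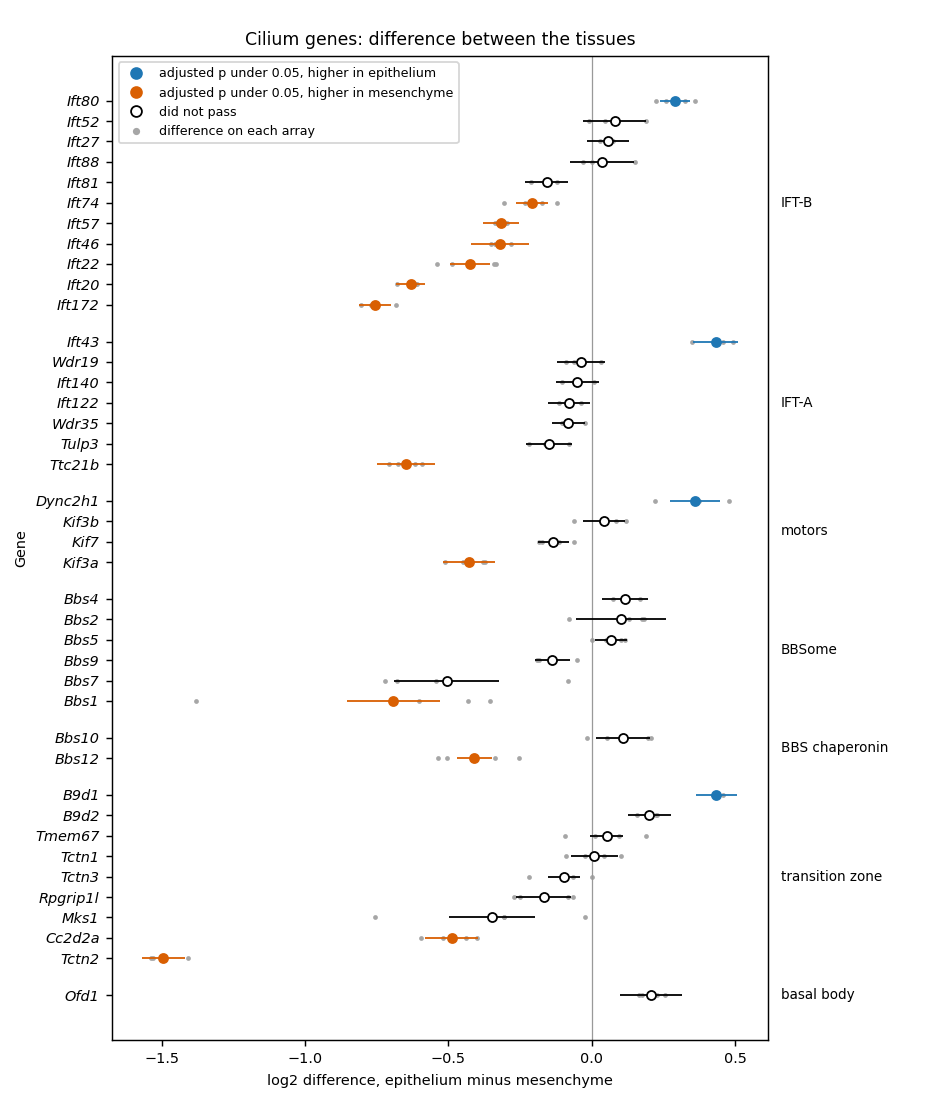
Difference between the tissues for each of the 40 cilium genes (x axis, log2 signal in epithelium minus mesenchyme; error bars, SE from limma, n = 4 per tissue), grouped by role on the y axis, with genes that passed the test filled in colour and small points for the single arrays. Among those that passed, 12 lie to the left of 0 and 4 to the right, and *Tctn2* at -1.49 stands apart from the rest.

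IFT-A, here with its adaptor *Tulp3*, had 1 gene toward each tissue and 5 of 7 that did not pass. Thus 28.6% passed, against 45.9% of all genes. *Ttc21b* (chr2:66183787-66256674), which encodes IFT139, gave 6.24, 6.26, 6.51 and 6.49 in the epithelium against 6.86, 6.94, 7.22 and 7.08 in the mesenchyme. The mesenchyme was higher in all samples, by a fold of 1.57 (difference -0.65, SE 0.10, limma adjusted p = 0.000719). *Ift43* (chr12:86082561-86162459), which encodes a small subunit of IFT-A, gave 12.24, 12.26, 12.10 and 12.36 in the epithelium against 11.89, 11.83, 11.65 and 11.86 in the mesenchyme. Here the epithelium was higher in all samples (1.35-fold, difference 0.43, SE 0.08, limma adjusted p = 0.00172). The products of these genes belong to 1 complex, and their transcripts were higher in opposite tissues.

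The other IFT-A genes showed no difference past the test. *Ift140* gave 9.21, 9.37, 9.31 and 9.16 in the epithelium against 9.27, 9.47, 9.30 and 9.20 in the mesenchyme (difference -0.05, SE 0.08). *Wdr19*, which encodes IFT144, gave 9.84, 9.72, 9.69 and 9.55 against 9.90, 9.75, 9.66 and 9.64 (difference -0.04, SE 0.08). In both genes the ranges of the tissues overlapped over most of their width. *Ift122* and *Wdr35*, which encodes IFT121, each differed by -0.08 (SE 0.07 and 0.06). *Tulp3*, whose product bridges IFT-A to receptors of the ciliary membrane, differed by -0.15 (SE 0.08, limma adjusted p = 0.169), and passed with the array as a block (adjusted p = 0.0172).

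Of the 4 motor genes, *Kif3a* passed toward the mesenchyme, *Dync2h1* passed toward the epithelium, and *Kif3b* and *Kif7* did not pass. *Kif3a* (chr11:53565701-53604248) encodes a motor subunit of the kinesin that carries IFT trains outward. It gave 8.81, 8.77, 8.58 and 8.95 in the epithelium against 9.26, 9.15, 9.09 and 9.32 in the mesenchyme, higher in every mesenchyme sample (1.35-fold, difference -0.43, SE 0.09, limma adjusted p = 0.00401). *Kif3b*, its partner in the heterodimer, gave 5.50, 5.32, 5.40 and 5.62 in the epithelium against 5.42, 5.38, 5.37 and 5.50 in the mesenchyme. The tissues were mixed (difference 0.04, SE 0.07), and *Kifap3*, the accessory subunit, differed by -0.11 (SE 0.13, limma adjusted p = 0.54, and 0.0248 with the array as a block). *Dync2h1* (chr9:6928550-7178306), the heavy chain of the dynein that returns trains to the base, gave 9.23, 9.29, 9.14 and 9.16 in the epithelium against 8.86, 9.07, 8.78 and 8.68 in the mesenchyme. All epithelium samples were higher (1.28-fold, difference 0.36, SE 0.09, limma adjusted p = 0.00917), and without array 1 the adjusted p was 0.0527. The intermediate chains of the same motor passed in opposite directions, *Wdr60* toward the epithelium (difference 0.32, SE 0.08, adjusted p = 0.0106) and *Wdr34* toward the mesenchyme (-0.36, SE 0.05, adjusted p = 0.000508). *Kif7*, a kinesin that regulates GLI proteins at the ciliary tip, differed by -0.13 (limma adjusted p = 0.0804, and 0.0243 with the array as a block).

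Of the 6 BBSome genes 1 passed, toward the mesenchyme (16.7%, against 45.9% of all genes). *Bbs1* encodes a subunit that binds the small GTPase ARL6. It gave 3.19, 3.64, 3.91 and 3.90 in the epithelium against 4.58, 4.25, 4.34 and 4.25 in the mesenchyme. The samples did not overlap, and the fold was 1.62 (difference -0.69, SE 0.16, limma adjusted p = 0.00741), at a mean signal in the 35.8th percentile of all genes. The difference was -1.38 on array 1 and -0.60 to -0.36 on the other arrays. It was -0.46 without array 1 (adjusted p = 0.00805) and -0.34 with the offset of 16 (adjusted p = 0.00303). *Bbs7*, a propeller subunit, gave 4.44, 4.67, 4.20 and 3.90 in the epithelium against 5.17, 4.75, 4.74 and 4.58 in the mesenchyme. Epithelium sample 2 lay above mesenchyme sample 4, and the difference of -0.51 (SE 0.18) missed the threshold (limma adjusted p = 0.0502). It passed with the array as a block (adjusted p = 0.0247), without array 2 (0.0409), without epithelium sample 2 (0.0214) and without mesenchyme sample 4 (0.045). The size of the difference was smaller with all probes averaged (-0.20, adjusted p = 0.0642) and after adding an offset of 16 to the linear signals (-0.30, adjusted p = 0.0352), which shrinks differences of dim probes.

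On their brightest probes, the other BBSome genes differed by at most 0.14 in size and did not pass. *Bbs2*, *Bbs4* and *Bbs5* differed by 0.10, 0.12 and 0.07 (SE 0.16, 0.08 and 0.05), and *Bbs9* by -0.14 (SE 0.06). With the array as a block *Bbs4* passed toward the epithelium (adjusted p = 0.0224) and *Bbs9* toward the mesenchyme (0.0265). The other probe of *Bbs4*, with a mean signal of 4.86, gave 0.41 (limma adjusted p over all probes 0.00567). *Bbs10* and *Bbs12* encode chaperonin-like proteins that help to assemble the BBSome. *Bbs12* gave 6.49, 6.57, 6.48 and 6.66 in the epithelium against 6.998, 6.91, 7.01 and 6.92 in the mesenchyme, with no overlap (1.33-fold, difference -0.41, SE 0.06, limma adjusted p = 0.000548). *Bbs10* differed by 0.11 (SE 0.09, adjusted p = 0.39). *Mkks*, the gene of the third chaperonin-like protein, was also higher in the mesenchyme (-0.31, SE 0.09, adjusted p = 0.0179).

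*Ofd1*, which encodes a protein of centriole tips and centriolar satellites, gave 10.66, 10.66, 10.97 and 10.71 in the epithelium against 10.43, 10.41, 10.80 and 10.55 in the mesenchyme. The epithelium was higher on each array, by 0.21 in the mean (SE 0.11), yet sample 3 was the highest of its tissue in both and the ranges overlapped (limma adjusted p = 0.162). With the array as a block the adjusted p was 0.00404. It also passed without array 3 (0.0366) and without mesenchyme sample 3 (0.0384), whereas without epithelium sample 3 the difference was 0.13 (0.352).

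The 40 genes were measured by 85 probes, and 22 genes had several. In 9 of these the probes differed in sign: *Bbs7*, *Dync2h1*, *Ift46*, *Ift57*, *Ift81*, *Ift140*, *Rpgrip1l*, *Tmem67* and *Wdr19*. In 7 of the 9 the signs differed through dim probes: among the 18 genes with several probes above the limit of the dimmest 30% of genes (a log2 signal of 3.31), 16 had probes of 1 sign. The exceptions were *Ift46*, described above, and *Ift81*, with probes at -0.16, -0.01 and 0.33. Among genes that passed and had several probes, the probes of those with the largest differences ran together. The 3 probes of *Ift172* above the limit gave -0.76, -0.62 and -0.82, the pair for *Ift20* -0.63 and -0.71, the pair for *Ttc21b* -0.65 and -0.90, and the pair for *Kif3a* -0.43 and -0.64. The 4 probes of *Dync2h1* above the limit lay between 0.21 and 0.49. *Tctn2*, *B9d1*, *Ift43*, *Bbs1*, *Bbs12*, *Cc2d2a*, *Ift22* and *Ift74*, which also passed, rested on 1 probe each. *Ift80* had 1 of 3 probes above the limit.

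**Figure D4:**
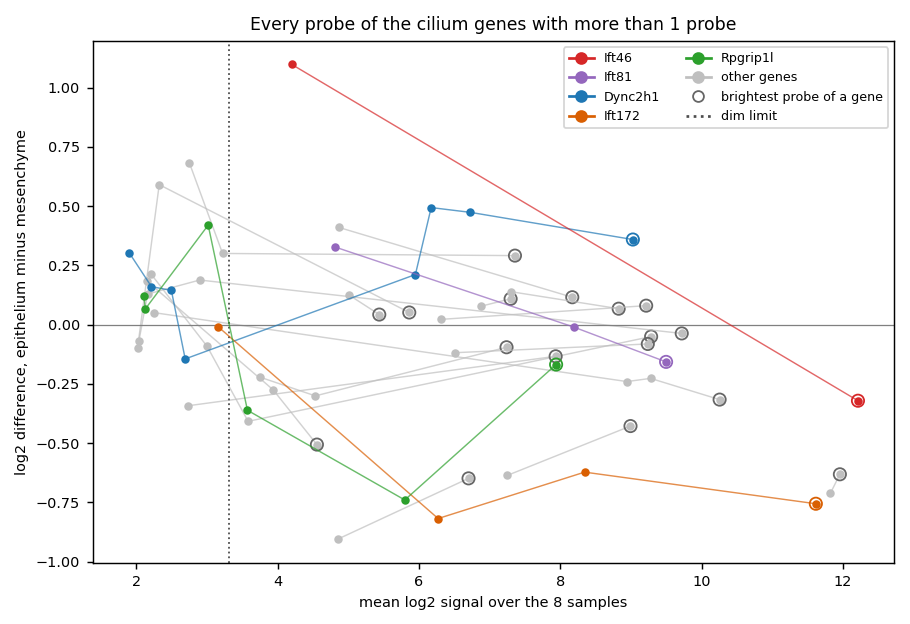
Every probe of the 22 cilium genes with several probes, by its mean log2 signal over the 8 samples (x axis) and its log2 difference, epithelium minus mesenchyme (y axis); lines join the probes of a gene, circles mark its brightest probe and the dotted line is the dim limit of 3.31. The probes of *Ift172* above the limit lie below 0, whereas those of *Ift46* lie on both sides of 0, at -0.32 and 1.10.

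Other genes of the cilium showed a like mixture. Of 77 further genes in 4 lists (92 listed), 25 passed toward the mesenchyme and 14 toward the epithelium, 50.6% in all, with a median difference of -0.04. The fit with the array as a block gave 32 toward the mesenchyme and 20 toward the epithelium. IFT and BBS genes under other names had 6 toward the mesenchyme and 1 toward the epithelium among 18. The IFT-B genes *Ttc30b* and *Ttc30a1*, which encode IFT70 proteins, were higher in the mesenchyme (-0.43 and -0.35, SE 0.08 each), as was the BBSome gene *Ttc8* (-0.29, SE 0.07). *Hspb11*, which encodes IFT25, gave 0.38 (SE 0.16, limma adjusted p = 0.0938, and 0.0428 with the array as a block) on a dim probe.

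Ciliary membrane and cargo genes had 8 of 18 toward the mesenchyme and 4 toward the epithelium. Those higher in the mesenchyme included *Adcy3*, the adenylyl cyclase found in many primary cilia (-0.996, SE 0.09), and *Evc2* and *Evc*, which encode partners that relay the Hedgehog signal at the ciliary base (-0.95 and -0.81, SE 0.05 and 0.06). *Mak*, a kinase gene of the cilium, was higher in the epithelium (0.85, SE 0.18) on a dim probe. Basal body and ciliogenesis genes had 7 of 25 toward the mesenchyme and 4 toward the epithelium. *Wdpcp*, a planar polarity effector (-0.95, SE 0.06), *Ttbk2*, the kinase that starts axoneme growth (-0.70, SE 0.14), and *Dzip1* (-0.64, SE 0.05) were higher in the mesenchyme, and *Rab3ip*, which encodes the exchange factor Rabin8, was higher in the epithelium (0.45, SE 0.06).

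The list of other transition zone genes, which also holds genes of the inversin compartment, had 5 of 16 toward the epithelium and 4 toward the mesenchyme. *Cep290*, which encodes a tether between membrane and microtubules, was 2.04-fold higher in the epithelium (1.03, SE 0.11, limma adjusted p = 4.94e-05), and *Tmem231*, a gene of the same complex as *B9d1* and *Tctn2*, was also higher there (0.55, SE 0.09). Among the 4 higher in the mesenchyme were *Anks6* and *Nek8*, partners in the inversin compartment (-0.97 and -0.42, SE 0.13 and 0.06).

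RFX factors and FOXJ1 switch on cilium genes. Of their 7 genes, 2 passed, both toward the epithelium: *Foxj1*, the regulator of motile cilia (difference 1.44, SE 0.10, limma adjusted p = 4.63e-06), and *Rfx3* (0.98, SE 0.09, adjusted p = 3.09e-05). In the blocked fit, 4 passed toward the epithelium (these, *Rfx2* and *Rfx7*) and 1 toward the mesenchyme (*Rfx1*). Markers of multiciliated cells, a list that also holds *Foxj1*, had 6 of 25 toward the epithelium and 0 toward the mesenchyme. That is 24% in all, against 45.9% of all genes, and 13 of the 25 genes were among the dimmest 30%. Besides *Foxj1*, those that passed were *Tppp3* (1.35), *Myb* (1.27), *Spag6l* (0.83, on a dim probe), *Ccdc40* (0.41) and *Tuba1a* (0.27). The blocked fit gave 6 toward the epithelium and 3 (*Tekt1*, *Tekt2* and *Dnaic1*) toward the mesenchyme. The mean signal of the list was 4.54 to 4.56 in the epithelium samples and 4.30 to 4.41 in the mesenchyme samples. Axonemal genes of such cells had signals over a wide range: *Dnah5*, *Dnaic2* and *Rsph4a* had means of 1.98 to 2.48 in the tissues, *Dnaic1* 5.42 and 5.66, *Rsph9* 8.67 and 8.58, and *Tekt1* 10.45 and 10.69 (epithelium and mesenchyme), each on a probe of its own. Of 17 mitosis genes, 5 passed toward the mesenchyme and 3 toward the epithelium (median -0.11; with the array as a block, 10 and 4). The part of these lists in the differences of the cilium genes was not tested.

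**Figure D5:**
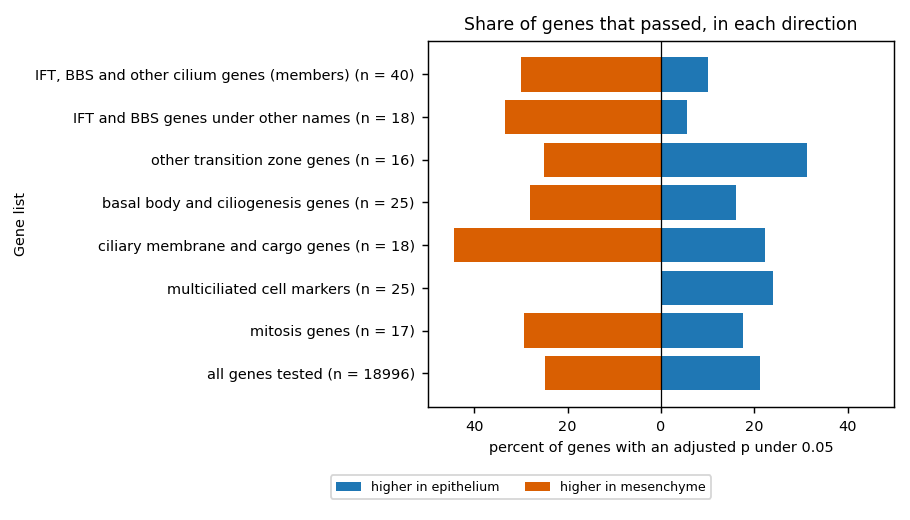
Percent of genes with an adjusted p under 0.05 (x axis), to the left for genes higher in the mesenchyme and to the right for genes higher in the epithelium, for the 40 cilium genes (12 and 4 of them), the other lists and all 18996 genes (24.8% and 21.2%). The multiciliated list has no bar toward the mesenchyme in this fit, which has no array block.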

How the data were processed

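RNA was extracted with the QIAgen RNeasy kit and amplified before hybridization, per the labels. The authors deposited log2 signals, 1 for each of 45220 features and 8 samples: spot signals were background-corrected (normexp), log-transformed and quantile-normalized with limma, and the 2 channels were treated like single channels. No source used here states the base of the logarithm, which was taken as 2 from the size of the values. Quantile normalization gives all samples nearly 1 distribution, so differences are relative to the rest of the transcriptome. Both dyes are given in the labels, but only Cy3 in the array methods of the study. The signal of a dim probe lies near background, and the number of arrays limits the precision.

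The platform annotation named 1 gene for 33653 features, several for 56 and none here for 11511, and 523 features with a missing value were left out. The brightest probe stood for each gene, and 18996 genes were tested with limma 3.58.1 (R 4.3.3; lmFit, eBayes, unpaired as in the methods), with a threshold of 0.05 on the Benjamini-Hochberg adjusted p. The procedure was tested on simulated data with independent noise in each sample, so that test does not cover the effect of a shared array. The design note gives 4 embryos and the series holds 4 samples of each tissue, although the text of the study gives n = 3 for this comparison; all 4 were used. Samples with the same number shared an array, and their deviations from the tissue means correlated at 0.35 to 0.62 over all genes in the 4 arrays, so a fit with the array as a block was run beside the main one. The alternatives left out each sample and each array, averaged all probes, left out dim genes, changed the normalization (cyclic loess), centring, offset or variance model, and kept features with missing values.

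Every cilium gene found is named. Values in every sample were given for the 4 largest differences in each direction among those that passed, for *Kif3a* and *Kif3b*, for genes whose probes disagree in sign and for some others, and up to 4 genes with the largest differences were named from each other cilium list. *Kifap3*, *Wdr60*, *Mkks*, *Ttc8* and the genes named among the multiciliated markers and RFX factors were named after their values were seen. The genes and lists were chosen with earlier results of these data known. Promoter windows were read from RefSeq (GRCm38.p6), as were gene positions. Symbols of all 40 genes matched RefSeq.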

Additional observations from a re-analysis of the deposited data

Results flagged for a closer look

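In 2 of the 80 sets of 4 samples (40 genes in each tissue), 1 sample lay far from the other three, with a gap to the nearest that exceeded Dixon's critical value. Chance alone flags about 1 in 20 sets. In *B9d2*, epithelium sample 4 (10.93) lay below the others (11.11 to 11.12), a gap of 0.966 of the range. In *Ift172*, epithelium sample 1 (11.36) lay above the others (11.19 to 11.21), a gap of 0.846 of the range, and leaving out any sample or array kept the difference of this gene between -0.80 and -0.74.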

How the results depend on the processing

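With the array as a replicate block, 7 cilium genes were higher in the epithelium in place of 4 and 18 in the mesenchyme in place of 12. Each other setting gave 3 to 6 and 10 to 14. The median difference of the 40 genes stayed below 0, at -0.061 after cyclic loess and at -0.121 to -0.072 when samples or arrays were left out. Averaging all probes turned the direction of *Ift46* (0.39), *Ift81* (0.053) and *Wdr19* (0.045). Leaving out samples or arrays turned the direction of 7 genes that had not passed: *Bbs2* (-0.0088 to 0.19), *Ift140* (-0.086 to 0.0020), *Ift52* (-0.017 to 0.14), *Ift88* (-0.032 to 0.12), *Kif3b* (-0.011 to 0.089), *Tctn1* (-0.060 to 0.045) and *Wdr19* (-0.083 to 0.017). The cause was not tested. Apart from the block, changes of call not given above were *Mks1* without array 1 (adjusted p = 0.0328), *B9d2* without array 4 (0.0354), *Bbs4* with all probes averaged (0.0033), and, under 1 or more of cyclic loess, centring, offset, variance model and the removal of dim genes, gains for *B9d2*, *Bbs7* and *Kif7*. Among the 40 genes, the block changed no call beyond the 9 it added. Signal near background, as for *Mks1*, limits what can be said of small differences.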
